A study of Mus musculus with 6 samples.

Results

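The genes described here are 9 markers of pancreatic duct and progenitor identity in mouse pancreas, taken by symbol from a count table of 36333 genes. They are 4 transcription factors (Sox9, Onecut1, Onecut2 and Pdx1) and 5 surface or secreted markers (Epcam, Spp1, Cd44, Muc1 and Tspan8), and each matched 1 row. RNA was sequenced from 3 pancreas samples of WT mice injected intraperitoneally with cerulein and from 3 of WT mice injected intraperitoneally with saline. Cerulein, an analogue of the hormone cholecystokinin that overstimulates acinar cells and is used to model acute pancreatitis, was given as 10 injections, each of 200 µl, at a dose of 200 µg/kg/h, and RNA was taken when the injections were complete. Neither strain, sex and age nor whether each sample came from its own mouse is stated, so the p-values measure the spread between these samples.

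Duct cells line the channels that carry acinar enzymes to the gut, and they arise from the same embryonic progenitors as acinar and islet cells. SOX9, ONECUT1 (also called HNF6) and PDX1 act together in those progenitors. In the adult, SOX9 and ONECUT1 are associated with ducts, while PDX1 is strongest in beta cells and weak in acinar cells. In injured pancreas, acinar cells can lose enzyme expression and take on duct features such as SOX9 and keratin 19, a state called acinar-to-ductal metaplasia. Among the surface and secreted markers, EPCAM is an epithelial adhesion protein and osteopontin, the product of Spp1, is a secreted ligand of integrins and CD44. CD44 is a receptor for hyaluronan, MUC1 is a mucin of the apical membrane, and TSPAN8 is a tetraspanin that organises membrane partners.

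Of the 9 genes, 6 passed the filter on low counts, and 4 of these rose after cerulein (Sox9, Epcam, Spp1 and Cd44) while 2 fell (Pdx1 and Muc1). Across all 12441 genes tested, 28.7% were called higher and 27.1% lower, so the 6 called members are to be read against 55.8% called in either direction. The counts of called genes in the wider lists below are to be read against the same shares. The other 3 members (Onecut1, Onecut2 and Tspan8) had too few reads for the test and are given as counts. In CPM, read counts set against the TMM-scaled library total, the 3 cerulein libraries lay wholly above or below the 3 saline libraries for 8 of the 9 genes, Onecut2 being the exception. Onecut1 and Tspan8 are among the 8 but were below the filter. For genes that passed it, the groups did not overlap for all 6 tested members, against 63.0% of all genes tested. The transcription factors and the surface markers each contained both directions, with 1 of 2 tested factors higher and 1 lower, and 3 of 4 tested surface markers higher and 1 lower. The median log2 fold change was 0.06 over the tested factors and 1.22 over the tested surface and secreted markers, against 0.00 over all genes tested, and the difference between these classes was not tested.

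Total counts lay between 5335117 and 7610775 per library. Changes are given relative to TMM scaling, which sets library sizes by the bulk of genes. Over all genes tested, the median log2 fold change shifted by -0.197 with upper-quartile factors and by 0.563 with library size alone. The share of called genes that were higher was 51.4% with TMM, 40.9% with upper-quartile factors and 78.1% with library size alone. These are bulk libraries, so fewer cells of a type and less RNA per cell cannot be told apart.

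Sox9, at chromosome 11, 112782224 to 112787760 on the plus strand (GENCODE M21, GRCm38, the build also called mm10), encodes the HMG-box factor that maintains duct and progenitor cells. Its level was 40.7, 34.2 and 28.9 CPM in cerulein replicates 1, 2 and 3, against 15.3, 10.1 and 15.2 CPM in saline replicates 1, 2 and 3. Every cerulein library lay above every saline library, and the lowest cerulein value was 28.9 CPM against a highest saline value of 15.3 CPM. The mean was 34.6 ± 5.91 CPM after cerulein and 13.5 ± 2.95 CPM after saline (SD, n = 3 each), a log2 fold change of 1.35 ± 0.21 (SE, edgeR quasi-likelihood test, adjusted p = 1.05e-04). This corresponds to a 2.54-fold higher level in the cerulein libraries.

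Pdx1, at chromosome 5, 147269959 to 147275848 on the plus strand, encodes the homeodomain factor needed to form the pancreas. It was read from few counts, with 11, 12 and 11 reads in the cerulein libraries and 24, 16 and 11 in the saline libraries. After scaling, its level was 1.30, 1.40 and 1.39 CPM in cerulein replicates 1 to 3, against 3.25, 3.60 and 2.83 CPM in saline replicates 1 to 3. The groups did not overlap, and the cerulein libraries were close to each other. Pdx1 fell by 1.23 ± 0.38 on the log2 scale (SE, edgeR, adjusted p = 0.0142), so that its level was 2.35-fold higher in saline. With library size alone the log2 fold change was -0.68 and the adjusted p was 0.179, so the call depended on the scaling. It was also near the threshold, at an adjusted p between 0.047 and 0.0484 (edgeR) with any 1 cerulein library left out.

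Because PDX1 is a beta-cell factor, the islet markers are given beside it. Their summed level over 18 genes was 1600, 1700 and 1030 CPM in cerulein replicates 1 to 3, against 839, 1960 and 1950 CPM in saline replicates 1 to 3, and the groups overlapped. Of 14 islet genes tested, 5 fell (Slc30a8, Slc2a2, Isl1, Nkx2-2 and Gcg) and none rose, with a median log2 fold change of -0.54 against 0.00 for all genes, and Iapp, which lies inside the span of Slco1a5, was listed at 0 in all libraries and not counted as measured. Leaving out saline replicate 1 gave 8 that fell, leaving out saline replicate 3 gave 1, and the number was 2 without cerulein replicate 2 or cerulein replicate 3 (where 1 rose) and 3 without saline replicate 2 or cerulein replicate 1, and library size alone gave 2 higher and 1 lower. Ins1 and Ins2, the pair of mouse insulin genes, are named after their values were seen. They made up most of the summed islet level and neither was called, so that sum does not stand for the list as a whole. Ins2 averaged 821 ± 220 CPM after cerulein and 837 ± 386 CPM after saline (SD, n = 3 each). Slc30a8, which loads zinc into insulin granules, fell by 2.28 ± 0.32 (SE) on the log2 scale. The part of islet content in the Pdx1 difference was not tested.

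Onecut1, at chromosome 9, 74861921 to 74891781, encodes a cut-homeodomain factor of duct and progenitor cells. Its counts were 4, 4 and 1 in the cerulein libraries, against 13, 7 and 4 in the saline libraries. The scaled levels did not overlap, at 0.126 to 0.473 CPM after cerulein and 1.03 to 1.76 CPM after saline. The ratio of cerulein to saline was 0.237, with an exact 95% interval from 0.0967 to 0.527 that covers counting error only. Fitted without a count filter, the log2 fold change was -1.93 ± 0.73 (SE, edgeR, adjusted p = 0.0253). The span of Onecut1 partly overlaps the RefSeq genes Gm33562 and Gm38678, which are separate rows of the table, so some of its reads may not have been assigned to it.

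Onecut2, the close relative of Onecut1 on chromosome 18, was near the detection limit. It had 6, 2 and 5 reads in the cerulein libraries, against 2, 2 and 1 in the saline libraries. The ratio was 1.64, with a counting interval from 0.549 to 5.87, and a difference was not detectable at this depth. Thus 2 of the 4 transcription factors had ratios above 1 (Sox9 and Onecut2) and 2 had ratios below 1 (Pdx1 and Onecut1), and the tested pair differed in sign.

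**Figure D1:**
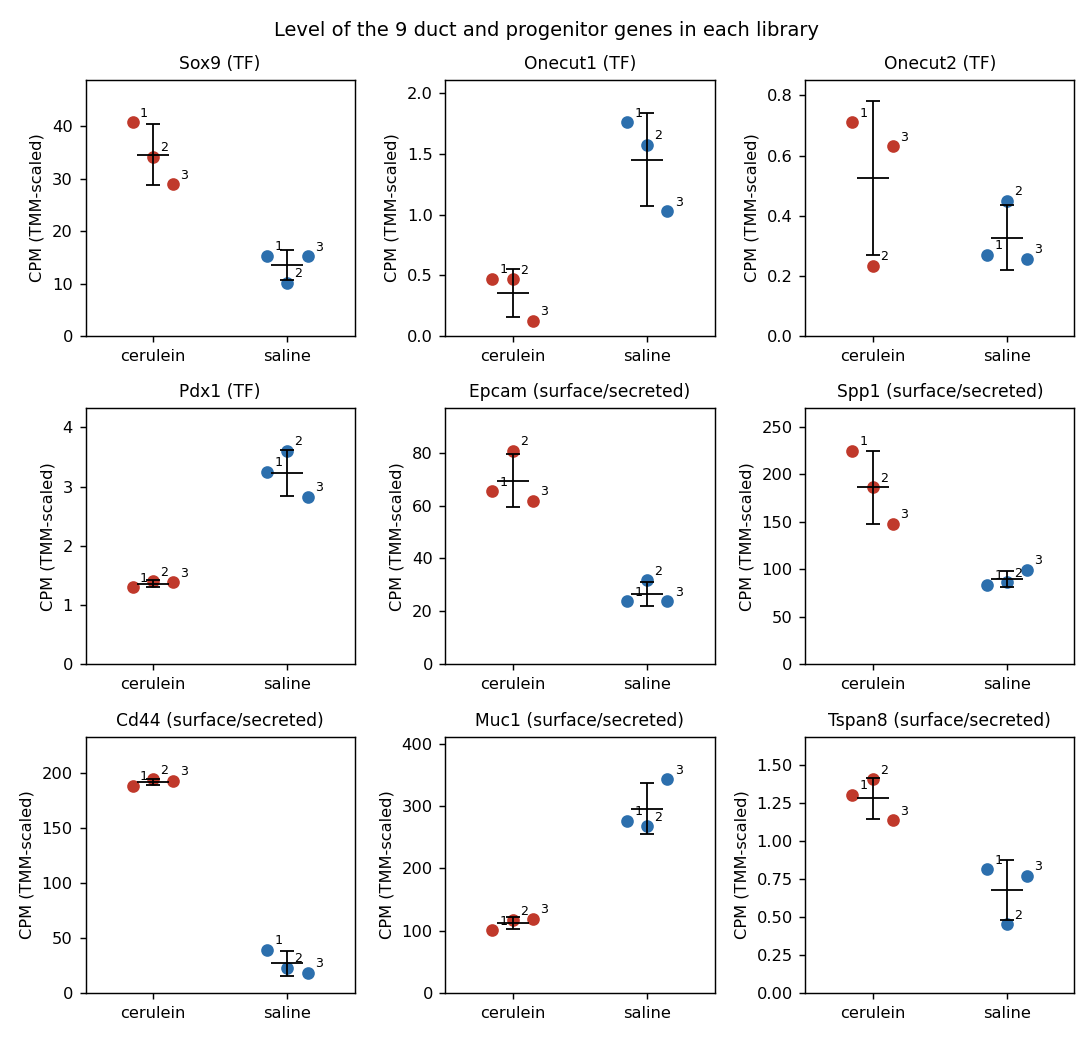
Level of each of the 9 genes in each library, in CPM on TMM-scaled library sizes, with cerulein libraries on the left and saline libraries on the right. Points are libraries numbered by replicate, the horizontal bar is the mean and the whiskers are the SD over 3 libraries; the groups overlap for Onecut2 only.

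Cd44, at chromosome 2, 102811141 to 102901665 on the minus strand, showed the largest difference among the 6 tested members. Its level was 188.5, 194 and 193 CPM in cerulein replicates 1 to 3, against 39.4, 22.8 and 18.3 CPM in saline replicates 1 to 3. The cerulein libraries were close to each other and all above the saline libraries, among which replicate 1 was the highest. The log2 fold change was 2.81 ± 0.24 (SE, edgeR, adjusted p = 1.37e-06), a 7.02-fold higher level after cerulein, and it was 3.19 without saline replicate 1.

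CD44 is also a leukocyte receptor, and saline replicate 1, the saline library with the highest Cd44, also had the highest leukocyte marker level of its group. The summed level of 21 macrophage and other leukocyte markers was 670, 575 and 544 CPM in cerulein replicates 1 to 3, against 639, 214 and 374 CPM in saline replicates 1 to 3. Of 19 such markers tested, 4 rose (Ccr2, Ly6c2, Cd68 and Lyz2) and none fell, with a median log2 fold change of 0.13. Without saline replicate 1, 6 rose and the median was 0.89; without saline replicate 2, 2 fell. Ptprc, which encodes the pan-leukocyte protein CD45 and is named after its values were seen, averaged 27.6 ± 6.48 CPM after cerulein and 20.8 ± 18.6 CPM after saline (SD, n = 3 each), and Ms4a1, which lies inside the span of another row of the table, was listed at 0 in all libraries and not counted as measured. The part of leukocytes in the Cd44 and Spp1 differences was not tested.

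Spp1, at chromosome 5, 104435118 to 104441050 on the plus strand, encodes osteopontin. Its level was 225, 186 and 148 CPM in cerulein replicates 1 to 3, against 84.1, 86.7 and 99.8 CPM in saline replicates 1 to 3. The groups did not overlap, and the cerulein libraries were more spread than the saline ones. Spp1 rose by 1.05 ± 0.18 on the log2 scale (SE, edgeR, adjusted p = 2.96e-04), a 2.07-fold higher level after cerulein.

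Epcam, at chromosome 17, 87635979 to 87651129 on the plus strand, had 65.5, 80.6 and 61.8 CPM in cerulein replicates 1 to 3, against 24.0, 31.8 and 23.9 CPM in saline replicates 1 to 3. All cerulein libraries lay above all saline libraries. The log2 fold change was 1.39 ± 0.17 (SE, edgeR, adjusted p = 1.97e-05), close in size to that of Sox9.

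Muc1, at chromosome 3, 89229057 to 89233381 on the plus strand, was the surface marker that fell. Its level was 100.5, 117 and 119 CPM in cerulein replicates 1 to 3, against 276, 267 and 343 CPM in saline replicates 1 to 3. The highest cerulein library was below the lowest saline library. Muc1 fell by 1.40 ± 0.17 on the log2 scale (SE, edgeR, adjusted p = 1.80e-05), so that its level was 2.64-fold higher in saline. It kept its direction and call under each scaling, at -1.60 with upper-quartile factors and -0.82 with library size alone.

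Tspan8, at chromosome 10, 115816832 to 115849893, had 11, 12 and 9 reads in the cerulein libraries, against 6, 2 and 3 in the saline libraries. The scaled levels did not overlap, at 1.14 to 1.40 CPM after cerulein and 0.451 to 0.813 CPM after saline. The ratio was 1.84, with a counting interval from 0.901 to 4.03 that includes no difference. The adjusted p was 0.299 without a count filter and 0.175 with a filter of CPM above 1 in 3 libraries (edgeR).

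**Figure D2:**
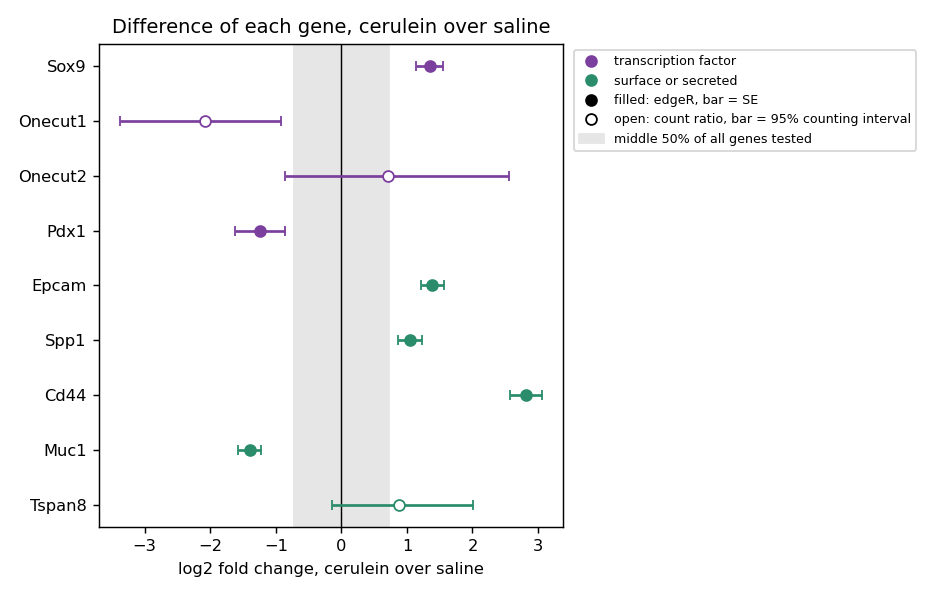
Difference of each of the 9 genes, as the log2 fold change of cerulein over saline. Filled points are edgeR estimates with their SE, open points are ratios of scaled counts with 95% counting intervals for the genes below the count filter, and the grey band holds the middle 50% of all genes tested; Cd44 lies farthest to the right at 2.81 and Onecut1 farthest to the left at -2.08.

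The 250 bases before the RefSeq start of the surface and secreted markers that were tested are shown so that the gene that fell can be read against those that rose. Sequences are from GRCm38.p6 (RefSeq), 5′ to 3′ on the gene's strand, and 7 of the 9 members had a window, all but Sox9 and Onecut2. Capitals mark matches, on either strand, to TGANTCA for AP-1, GGAATG for TEAD, ACAAT for SOX, ATTGAT for ONECUT, TATAAA for the TATA box or GGGCGG for SP and KLF factors, and no marked matches overlap.
Cd44, chr2:102901666-102901915, minus strand: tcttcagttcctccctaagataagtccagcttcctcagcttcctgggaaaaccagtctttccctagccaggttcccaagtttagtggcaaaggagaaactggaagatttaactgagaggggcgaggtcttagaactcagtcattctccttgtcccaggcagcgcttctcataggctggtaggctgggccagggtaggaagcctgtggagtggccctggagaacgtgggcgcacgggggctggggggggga
Epcam, chr17:87635729-87635978, plus strand: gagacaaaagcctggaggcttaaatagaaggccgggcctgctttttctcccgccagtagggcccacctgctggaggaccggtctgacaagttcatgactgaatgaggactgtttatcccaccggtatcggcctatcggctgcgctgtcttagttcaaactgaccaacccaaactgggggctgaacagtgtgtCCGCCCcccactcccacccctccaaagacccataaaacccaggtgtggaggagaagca
Spp1, chr5:104434861-104435110, plus strand: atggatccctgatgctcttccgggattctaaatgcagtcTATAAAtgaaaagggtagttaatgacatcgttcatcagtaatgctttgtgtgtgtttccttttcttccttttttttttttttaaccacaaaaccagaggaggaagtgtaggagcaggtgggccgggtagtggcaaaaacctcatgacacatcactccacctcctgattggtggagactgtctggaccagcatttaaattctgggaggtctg
Muc1, chr3:89228806-89229055, plus strand: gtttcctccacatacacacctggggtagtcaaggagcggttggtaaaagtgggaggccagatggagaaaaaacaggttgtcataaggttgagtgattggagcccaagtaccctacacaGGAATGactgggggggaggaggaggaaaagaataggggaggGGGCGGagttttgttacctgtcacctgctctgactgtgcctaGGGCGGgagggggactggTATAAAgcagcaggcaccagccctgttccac

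The Cd44 window held none of these letters, and no window shown held the AP-1, SOX or ONECUT letters. Positions are those of a match's first printed base, counted back from the start, with -1 the base just before it. Muc1 held the TATA box letters at -31, the TEAD letters at -132 and the SP and KLF letters at -91 and -49. Epcam held the SP and KLF letters on the opposite strand at -58, and Spp1 held the TATA box letters at -211. Of 32851 RefSeq windows of the same length, the TATA box letters were in 12.4%, the TEAD letters in 12.6% and the SP and KLF letters in 32.7%. The AP-1 letters were in 6.75% of windows, the SOX letters in 27.7% and the ONECUT letters in 6.72%. The windows had GC contents of 56.4% for Cd44, 56.4% for Epcam, 43.6% for Spp1 and 54.8% for Muc1, against a median of 52.4% over all windows. A second RefSeq window of Spp1, at chr5:104435942-104436191, held none of the letters. These matches describe the sequence and say nothing of binding.

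Levels of different genes were compared per kilobase of exon (GENCODE M21). In the cerulein libraries the order of levels was Spp1 at 113 ± 23.3, Muc1 at 47.7 ± 4.25, Epcam at 31.6 ± 4.55, Cd44 at 28.3 ± 0.448 and Sox9 at 8.37 ± 1.43 CPM per kilobase (SD, n = 3). In the saline libraries the order was Muc1 at 126 ± 17.5, Spp1 at 54.7 ± 5.09, Epcam at 12.1 ± 2.06, Cd44 at 3.96 ± 1.64 and Sox9 at 3.27 ± 0.712 CPM per kilobase (SD, n = 3). Spp1 and Muc1 thus changed places at the top. Neighbours whose libraries overlapped were Epcam and Cd44, and Onecut1 and Onecut2, after cerulein, and Cd44 and Sox9, and Tspan8 and Onecut1, after saline. The lowest members were Tspan8 at 0.753 ± 0.0793, Pdx1 at 0.633 ± 0.0256, Onecut1 at 0.0865 ± 0.0484 and Onecut2 at 0.0323 ± 0.0157 CPM per kilobase after cerulein. After saline they were Pdx1 at 1.50 ± 0.180, Tspan8 at 0.398 ± 0.116, Onecut1 at 0.354 ± 0.0926 and Onecut2 at 0.0201 ± 0.00665 CPM per kilobase.

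The ratio of a pair of members within a library does not depend on how libraries are scaled. Since the 6 tested members were all called, these ratios describe how their changes compare, and no share over all pairs of genes was computed. The ratios of cerulein and saline libraries overlapped for Sox9 with Epcam, Sox9 with Spp1, Epcam with Spp1, and Pdx1 with Muc1. The log2 count ratio of Sox9 to Epcam averaged -1.01 ± 0.287 after cerulein and -0.98 ± 0.575 after saline (SD, n = 3 each), a difference of -0.02. The log2 ratio of Pdx1 to Muc1 averaged -6.36 ± 0.076 after cerulein and -6.51 ± 0.365 after saline (SD, n = 3 each). Within the factors, the log2 ratio of Sox9 to Pdx1 lay between 4.38 and 4.97 after cerulein and between 1.49 and 2.42 after saline. Within the surface markers, the log2 ratio of Cd44 to Muc1 lay between 0.70 and 0.91 after cerulein and between -4.23 and -2.81 after saline. Cd44 also moved away from the other members that rose, with the log2 ratios of Sox9, Epcam and Spp1 to Cd44 changing by -1.55, -1.53 and -1.89 (cerulein minus saline), and the groups overlapped in none of these pairs.

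**Figure D3:**
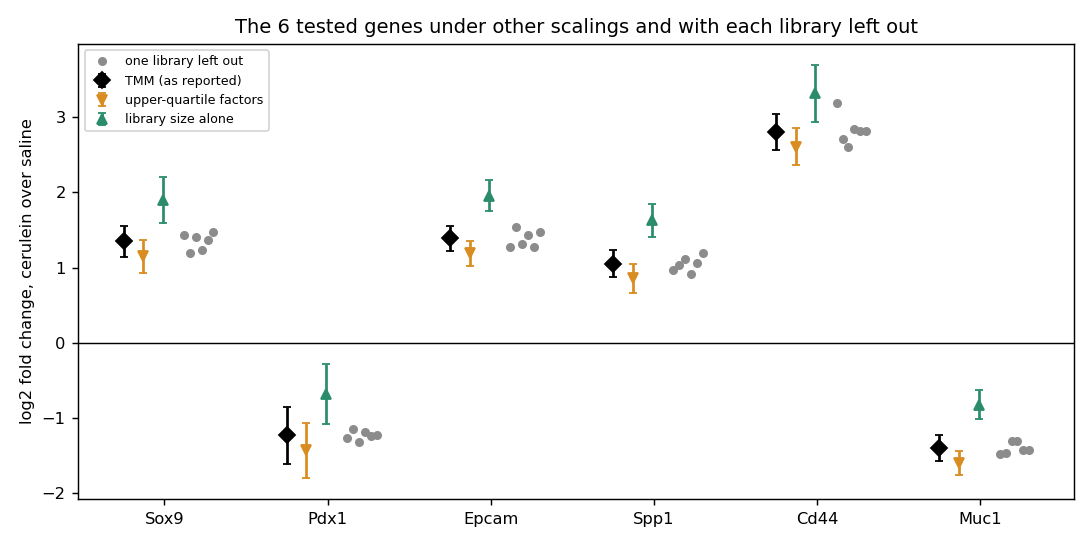
Log2 fold change of cerulein over saline for the 6 tested genes. Symbols are 3 library scalings with their SE and grey dots are fits with each of the 6 libraries left out; each gene stays on its own side of 0, and Pdx1 with library size alone, at -0.68, is the value whose adjusted p exceeded 0.05.

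Transcription factors of the foregut and ducts beyond the 4 members also moved in both directions. Of 25 listed, 20 were tested, 10 rose and 6 fell, with a median log2 fold change of 0.20. This split depended on scaling: upper-quartile factors gave 8 of each, and library size alone left 10 higher and none lower. Elf3, an epithelial ETS factor, rose to 95.8 ± 10.5 CPM after cerulein, against 12.5 ± 2.08 CPM after saline (SD, n = 3 each). Klf5, a factor of epithelial proliferation that is associated with metaplasia, rose by 3.10 ± 0.30, and Glis3, a zinc-finger factor of ducts and beta cells, by 1.75 ± 0.18 on the log2 scale (SE). Sox11, a SOX factor of embryonic tissues, averaged 7.16 ± 0.660 CPM after cerulein and 0.240 ± 0.227 CPM after saline (SD, n = 3 each).

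Several further factors are named after their values were seen. Hes1, a Notch target of progenitors, rose by 1.66 ± 0.23 (SE) on the log2 scale. Prox1, a progenitor homeobox factor, fell by 1.43 ± 0.41, and Gata4, a foregut zinc-finger factor, by 1.12 ± 0.17 on the log2 scale (SE). Foxa2, a foregut pioneer factor, fell by 1.05 ± 0.29 (SE) on the log2 scale, while its relative Foxa3 rose by 1.42 ± 0.27 (SE). Another relative, Foxa1, also rose, from 0.161 ± 0.140 CPM after saline to 5.81 ± 1.08 CPM after cerulein (SD, n = 3 each). Each of the calls of Prox1, Gata4 and Foxa2 was lost with library size alone, at -0.88, -0.55 and -0.43 on the log2 scale. Sox4 had no reads in any library and was not counted as measured. It lies inside the span of another RefSeq gene, but that gene is not a row of the table.

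The wider list of duct surface, transport and secreted genes had 12 that rose and 4 that fell among 23 tested of 30, with a median log2 fold change of 0.74. Krt19, the keratin that marks ducts, averaged 685.5 ± 95.4 CPM after cerulein and 23.4 ± 6.20 CPM after saline (SD, n = 3 each). Krt7 rose by 3.90 ± 0.21, the adhesion gene Cdh1 by 3.57 ± 0.22 and the tight junction gene Cldn7 by 3.03 ± 0.17 on the log2 scale (SE). The next genes are named after their values were seen. Cftr, the chloride channel of duct cells, averaged 4.63 ± 1.12 CPM after cerulein and 0.652 ± 0.216 CPM after saline (SD, n = 3 each), and the water channel gene Aqp1 rose by 1.20 ± 0.15 on the log2 scale (SE). Pkhd1, a gene of primary cilia, fell by 1.75 ± 0.29 and the ciliary gene Dcdc2a by 0.96 ± 0.23 on the log2 scale (SE). Atp1b1, a sodium pump subunit, and Slc9a3r1, an apical scaffold, were the other two that fell, by 0.72 ± 0.18 and 0.40 ± 0.16 on the log2 scale (SE). With library size alone Dcdc2a and Atp1b1 were not called, at -0.38 and -0.12, and Slc9a3r1 was at 0.18, on the other side of 0. The call of Slc9a3r1 was borderline, at an adjusted p of 0.0496 (edgeR). It was lost without a count filter, with CPM above 1 in 3 libraries and with DESeq2. It was also lost without saline replicate 2, saline replicate 3, cerulein replicate 1 or cerulein replicate 2. With library size alone 15 of the list were higher and 1 lower, and over the other alternatives 10 to 13 were higher and 3 to 5 lower. Aqp5 was listed at 0 in all libraries and lies inside another gene.

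A shorter list of defining duct markers did not move as a block. Of 8 tested of 10, 3 rose (Krt19, Krt7 and Cftr), 2 fell, Pkhd1 among them, and 3 were not called, with a median log2 fold change of -0.37 that was 0.21 with library size alone. The number that rose was 3 under every alternative. The number that fell was 3 with upper-quartile factors, with the replicate block and without saline replicate 1. It was 3 of 10 tested without a count filter, and 1 with library size alone. Their summed level was 1120, 1450 and 1110 CPM in cerulein replicates 1 to 3, against 443, 1180 and 1170 CPM in saline replicates 1 to 3. Most of this sum came from Krt19 and Tff2, whose estimates had opposite signs, so it does not stand for the list as a whole. Krt19 was at 651, 793 and 612 CPM in cerulein replicates 1 to 3, against 17.5, 22.8 and 29.8 CPM in saline replicates 1 to 3. Tff2, not called and named after its values were seen, was at 369, 539 and 383 CPM, against 370, 1090 and 1080 CPM. Of 10 fibroblast and stellate markers tested, 3 rose (Col1a1, Col3a1 and Postn) and 1, Dcn, fell, or 7 and 0 with library size alone, and their summed level was 495, 390 and 368 CPM after cerulein, against 412, 396 and 466 CPM after saline. Of 8 endothelial markers 2 rose (Esam and Eng) and 2 fell (Kdr and Vwf). The endothelial split was 3 and 0 with library size alone, and 0 and 3 with upper-quartile factors. Leaving out cerulein replicate 2 gave 1 higher and 1 lower, leaving out cerulein replicate 3 gave 2 higher and 0 lower, leaving out saline replicate 1 gave 2 higher and 3 lower, and leaving out saline replicate 2 gave 2 higher and 1 lower. Their summed level was 153 to 186 CPM after cerulein and 154 to 175 CPM after saline. Of 5 mesothelial markers tested none rose and 1, Upk3b, fell by 0.78 ± 0.30 on the log2 scale (SE). With a library left out, that call held only without saline replicate 2, while its log2 fold change was between -0.78 and -0.52 in the fits that lost it. The mesothelial summed level was 17.0 to 21.9 CPM after cerulein and 21.8 to 36.0 CPM after saline. The part of any of these cell types in the member differences was not tested.

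Acinar genes, whose transcripts make up much of the RNA of a resting pancreas, moved the other way from Sox9 and Krt19. The summed level of 9 acinar markers was 154000, 193000 and 152000 CPM in cerulein replicates 1 to 3, against 224000, 420000 and 412000 CPM in saline replicates 1 to 3. Of 15 acinar regulators and products, all tested, 13 fell, 1 rose and 1 was not called, with a median log2 fold change of -1.48. Rbpjl, the acinar partner of PTF1A, fell by 2.89 ± 0.22 on the log2 scale (SE). Nr5a2, a nuclear receptor of acinar identity, fell by 1.55 ± 0.18 (SE). The amylase gene Amy2a5 averaged 1.20 ± 0.397 CPM after cerulein and 162 ± 44.9 CPM after saline (SD, n = 3 each), and it belongs to a family of near-identical copies among which reads may be split. The gene that rose was Ptf1a, which also marks early progenitors, by 1.38 ± 0.24 on the log2 scale (SE). The part of acinar RNA in the member differences was not tested.

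**Figure D4:**
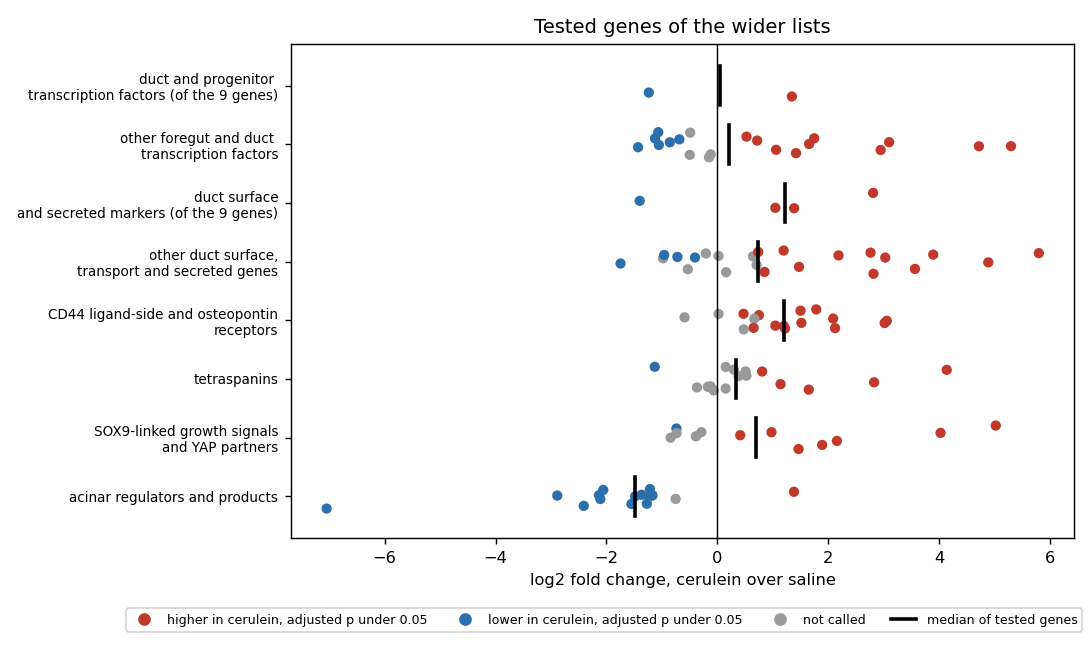
Log2 fold change of cerulein over saline for the tested genes of each list. Red points were called higher, blue points lower and grey points neither at an adjusted p under 0.05 (edgeR), and the black bar is the list's median; the wider duct and factor lists hold red and blue points, and the list around CD44 and osteopontin holds no blue point.

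Partners of CD44 and osteopontin were mostly higher. Of 19 hyaluronan enzymes, matrix proteases, integrins and cytoskeletal linkers, 17 were tested, 13 rose and none fell, with a median log2 fold change of 1.20. Among all genes tested, 28.7% were called higher and 27.1% lower. Between 11 and 16 of the list were higher over the alternatives run, which tested 17 to 19 of them, and the 16 were of 18 tested without saline replicate 1. Itga5, an integrin subunit that can bind osteopontin, rose by 2.13 ± 0.16, and the integrin subunits Itgb5 and Itgav, which pair as an osteopontin receptor, rose by 1.52 ± 0.18 and 1.50 ± 0.19 on the log2 scale (SE). Ezr, which encodes ezrin, a linker of the CD44 tail to actin, averaged 121 ± 4.85 CPM after cerulein and 28.2 ± 6.29 CPM after saline (SD, n = 3 each). The hyaluronan synthase gene Has1, named after its values were seen, averaged 10.9 ± 2.56 CPM after cerulein and 1.48 ± 1.04 CPM after saline (SD, n = 3 each).

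Among the relatives of Tspan8, 16 of 18 tetraspanins were tested, 5 rose and 1 fell, against 28.7% higher and 27.1% lower among all genes tested, with a median log2 fold change of 0.34. The share that rose was near that of all genes. The number higher was 9 with library size alone. Tspan1, an epithelial tetraspanin, averaged 23.0 ± 7.21 CPM after cerulein and 1.32 ± 0.809 CPM after saline (SD, n = 3 each). Cd9 and Cd63, tetraspanins of the cell surface and of late endosomes, rose by 2.83 ± 0.18 and 1.65 ± 0.26 on the log2 scale (SE), and Tspan13 fell by 1.13 ± 0.17 (SE). Of 9 mucins, Muc1 was the one that passed the count filter, and the other 8 averaged between 0 and 1.06 CPM in either group.

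The genes most like each tested member were found by the root-mean-square distance between centred log2 CPM profiles over the 6 libraries, among 8068 candidates, in which the difference between groups takes most of the weight. For Sox9 they were H2-K1, a member of a gene family with near-identical copies, and Psd, at distances of 0.116 and 0.126, and for Epcam Arhgdia and Ltbr, at 0.0673 and 0.0717. For Spp1 they were Slco3a1 and Ebna1bp2, at 0.0916 and 0.107, and for Cd44 Efhd2 and Actn1, at 0.151 and 0.153. For Pdx1 they were Chp1 and Insr, at 0.0446 and 0.0565, and for Muc1 Gbas and R3hdm2, at 0.0438 and 0.0629. Cd44 had the most distant nearest genes of the 6.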

How the data were processed

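Pancreas from cerulein-injected and saline-injected WT mice (3 samples each) was kept in RNAlater, and its RNA was extracted with TRIzol and sequenced from stranded poly(A) libraries, per the labels' protocols. What the authors deposited is a table of raw counts, 36333 genes by 6 libraries. Tools named in the submitters' processing notes are STAR, HTSeq and Trimmomatic, with the mm10 build; their versions, the annotation and the strand setting are not given in the sources read. Genes were filtered with filterByExpr (minimum count 10, minimum total 15), scaled by TMM and tested two-sided with edgeR 4.0.16 (R 4.3.3; quasi-likelihood, robust, group as the only term), with Benjamini-Hochberg adjustment over 12441 genes and a threshold of 0.05. The code was tested on simulated data. CPM are on TMM-scaled library sizes. Members below the filter are given as ratios of summed scaled counts with exact 95% conditional binomial intervals, which cover counting error only. Alternatives were limma 3.58.1 (voom), DESeq2 1.42.0, other scalings and filters, a replicate block and each library left out.

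The members and gene lists were chosen with earlier results of these data known. Named genes are the 9 members, up to 4 genes of each wider list with the smallest p, and for each tested member the 2 genes most like it (log2 CPM with prior count 2, average of at least 3). Others are said to be named after their values were seen, or complete a short count. Some genes of the lists are counted but not reported by name here. Exon lengths are from GENCODE M21 and promoters from RefSeq.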

Additional observations from a re-analysis of the deposited data

How the results depend on the processing

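Sox9, Epcam, Spp1, Cd44 and Muc1 kept their direction and their call under every alternative run. Pdx1 did so under all but library size alone, where it was -0.68 with an adjusted p of 0.179 (edgeR). Its log2 fold change ranged from -1.32 to -1.15 with each library left out. Its call was near the threshold in several fits, with an adjusted p of 0.0478, 0.0484 and 0.047 without cerulein replicates 1, 2 and 3 (edgeR). The adjusted p was 0.0441 without a count filter (edgeR) and 0.0446 with the DESeq2 Wald test, against 0.00608 with upper-quartile factors (edgeR). With library size alone the members called lower numbered 1 and the genes called lower 1449, against 2 and 3373 with TMM, the median log2 fold change was 0.61 for the factors and 1.80 for the surface markers, and the log2 ratios were -1.54 for Onecut1, 1.25 for Onecut2 and 1.42 for Tspan8. With upper-quartile factors the medians were -0.14 for the factors and 1.02 for the surface markers. Without a count filter, which adds Onecut1, Onecut2 and Tspan8 to the genes tested, they were -0.21 and 1.12, and 3 members were lower, Onecut1 being the addition. With CPM above 1 in 3 libraries the surface median was 1.06, over 5 genes because Tspan8 was added. With each library left out, the surface median ranged from 1.03 to 1.20 and the log2 ratio of Onecut1 from -2.33 to -1.70. The replicate block called 4 members higher and 2 lower, with 3673 genes higher and 3401 lower. The fit was unpaired because the labels do not say that replicate numbers pair samples. Same-numbered libraries had correlations of 0.19, 0.216 and -0.15 between their deviations from the group means, and differently numbered ones between -0.293 and 0.088. With 3 libraries per group these values cannot decide whether the numbers pair samples. Depth limits Onecut1, Onecut2, Tspan8 and Pdx1, which had between 18 and 85 reads over all 6 libraries.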

Other observations

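Growth signals and YAP partners linked to SOX9 moved in both directions after cerulein, with more called higher than lower. Of 14 listed, 12 were tested, 7 rose and 1 fell, with a median log2 fold change of 0.70 against 0.00 for all genes tested. Among all genes tested, 28.7% were called higher and 27.1% lower. The 4 not called were Egfr, Fgfr2, Jag1 and Notch1, with log2 fold changes of -0.842, -0.735, -0.385 and -0.287. With upper-quartile factors 6 of the list were higher and 5 lower. Hbegf, a ligand of the EGF receptor, averaged 168 ± 38.2 CPM after cerulein and 5.28 ± 1.28 CPM after saline (SD, n = 3 each). Cyr61 (also called Ccn1), a target of YAP, rose by 4.03 ± 0.29, the receptor gene Notch2 by 1.89 ± 0.24 and Wwtr1, which encodes the YAP relative TAZ, by 1.47 ± 0.19 on the log2 scale (SE). Tgfa, another ligand of the EGF receptor, fell by 0.74 ± 0.18 (SE) and was the gene that fell, at -0.18 and not called with library size alone. Ctgf (also called Ccn2), a YAP target named after its values were seen, rose by 2.16 ± 0.49 on the log2 scale (SE). It stood at 2.01 on that scale when saline replicate 1 was left out, with an adjusted p of 0.113 (edgeR).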
